A study of Mus musculus with 8 samples.

Results

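Enzymes that cut the extracellular matrix, together with their inhibitors, were followed in 8 bulk RNA libraries from mouse fibrosarcomas. The panel of 38 genes was chosen with earlier results of these data known. It comprises matrix metalloproteinases (MMP), ADAM and ADAMTS metalloproteinases, and tissue inhibitors of metalloproteinases (TIMP) with the inhibitor Reck. The urokinase system and the serine protease Htra1 are also included. Further genes of the MMP, ADAM and ADAMTS families were not in the panel and were read as partner genes. The panel is 38 of 35975 genes measured, and 35 of the 38 were among the 13343 genes with enough counts to be tested. Reck, Timp4 and Adamts15 were not. The tumors were syngeneic fibrosarcomas grown under the skin of WT C57BL/6 mice, and all libraries share this tissue and genotype. After enzymatic digestion of the tissue (collagenase B with DNase I) and lysis of red cells, the cells went over a magnetic column. The iron positive group is the eluate, the cells that the magnet held (4 libraries, tagged 3L, 3R, 4R, 5L). The iron negative group is the flowthrough of the same columns (4 libraries with the same tags). No antibody sort is named, so cells other than macrophages could enter either fraction, and in bulk RNA a lower share of a cell type and less RNA per cell cannot be told apart. Nothing in the labels says that the tags are separate animals. All p-values therefore describe the spread among these libraries, which may be technical.

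Matrix metalloproteinases are zinc enzymes that are secreted or held in the cell membrane as inactive forms and together cleave collagens, gelatin, laminin, elastin and proteoglycans. TIMP proteins block them by binding the active site. ADAM proteases sit in the membrane and release the outer parts of other membrane proteins, whereas ADAMTS proteases are secreted and cut proteoglycans and procollagens. Urokinase, bound to its receptor on the cell surface, turns plasminogen into plasmin. In tumors these enzymes are made by macrophages and neutrophils as well as by fibroblasts, endothelial cells and tumor cells.

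Both fractions were rich in macrophage transcripts, and the iron positive one held more transcripts of stromal cells. Depth was 19.04 to 24.31 M estimated counts per library. Levels are given as TPM, an abundance per transcript length. The 12 macrophage markers summed to 26229 to 33001 TPM in iron positive and 32950 to 34160 TPM in iron negative libraries, and 5 of them were lower in the iron positive fraction. All 12 endothelial markers were higher there (sums of 80.4 to 838 TPM in iron positive and 20.4 to 38.6 TPM in iron negative libraries). So were 7 of 10 pericyte and smooth muscle markers (48.7 to 332 and 18.6 to 40.5 TPM) and 8 of the 11 tested markers of fibroblasts and fibrosarcoma (191 to 2007 and 45.6 to 150.4 TPM). All 7 skeletal muscle markers were higher as well (25.4 to 79.7 and 5.47 to 7.06 TPM). No marker was at 0 in all libraries, and the part of these cells in the protease results was not tested.

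Iron positive libraries had higher levels of 18 of the 35 tested protease and inhibitor genes and a lower level of 1. The increases included Mmp9, Mmp8, Mmp12 and Adam8, proteases known from macrophages and neutrophils, the inhibitors Timp1 and Timp3, and 6 ADAMTS genes. The decrease was that of Adam17, the sheddase that releases tumor necrosis factor. The test was edgeR's quasi-likelihood test with p-values adjusted over all 13343 genes and a threshold of 0.05, and fold changes are log2 values of iron positive over iron negative estimated counts, given with their SE. Over all genes 8.49% were called higher (1133) and 5.21% lower (695). Scaled by library totals the split over all genes was 1172 higher and 362 lower, and scaled to the macrophage markers it was 1637 and 30. The protease and inhibitor genes had a median log2 fold change of 1.999, against -0.01 over all tested genes. Each of the 18 genes called higher had the higher TPM value in 4 of 4 same-tag pairs. In 19 of the 35 genes every iron positive library lay above every iron negative one (10.9% of all tested genes), in 2 every one lay below (Mmp25 and Adam17; 5.34% of all), and in 14 the fractions overlapped. Of the 18 genes called higher, 16 did not overlap, and the call and the overlap rest on the same libraries.

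With the shared tag as a block in the fit, 21 of the 35 genes were higher and 3 lower, beside 12.8% and 9.39% of all genes. All 18 genes called higher were among the 21, which added Mmp19, Adamts5 and Htra1, and the genes called lower were Adam17, Mmp25 and Plau. The calls rested on all iron negative libraries in edgeR. Without iron negative 3L, 3R, 4R or 5L no protease or inhibitor gene passed, beside 0% to 0.191% of all genes higher and 0% to 0.088% lower. The smallest adjusted p values among the protease and inhibitor genes were 0.0619, 0.0520, 0.0630 and 0.0518. At an unadjusted p under 0.05, 23 still stood higher in each of these fits, and 2, 2, 4 and 2 stood lower, beside 15.0% to 15.7% of all tested genes higher and 10.6% to 11.8% lower. In DESeq2, leaving out the same libraries in turn gave 22, 23, 21 and 20 increases with 1, 1, 1 and 2 decreases, beside 10.3% to 11.3% and 5.44% to 5.54% of all genes. Without iron positive 4R, when 2.96% of all genes were higher, 9 of the 18 remained (Mmp9, Mmp8, Mmp12, Mmp27, Timp1, Timp3, Adamts1, Adamts4 and Adamts9) and Adam17 lost its call. Mmp3, Mmp11, Adam12 and Adamts2 also lost theirs without iron positive 3R, and Adam8 without iron positive 3L. Limma voom called 1 gene higher (Mmp9) and 1 lower (Adam17), beside 1.42% and 2.05% of all genes.

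**Figure D1:**
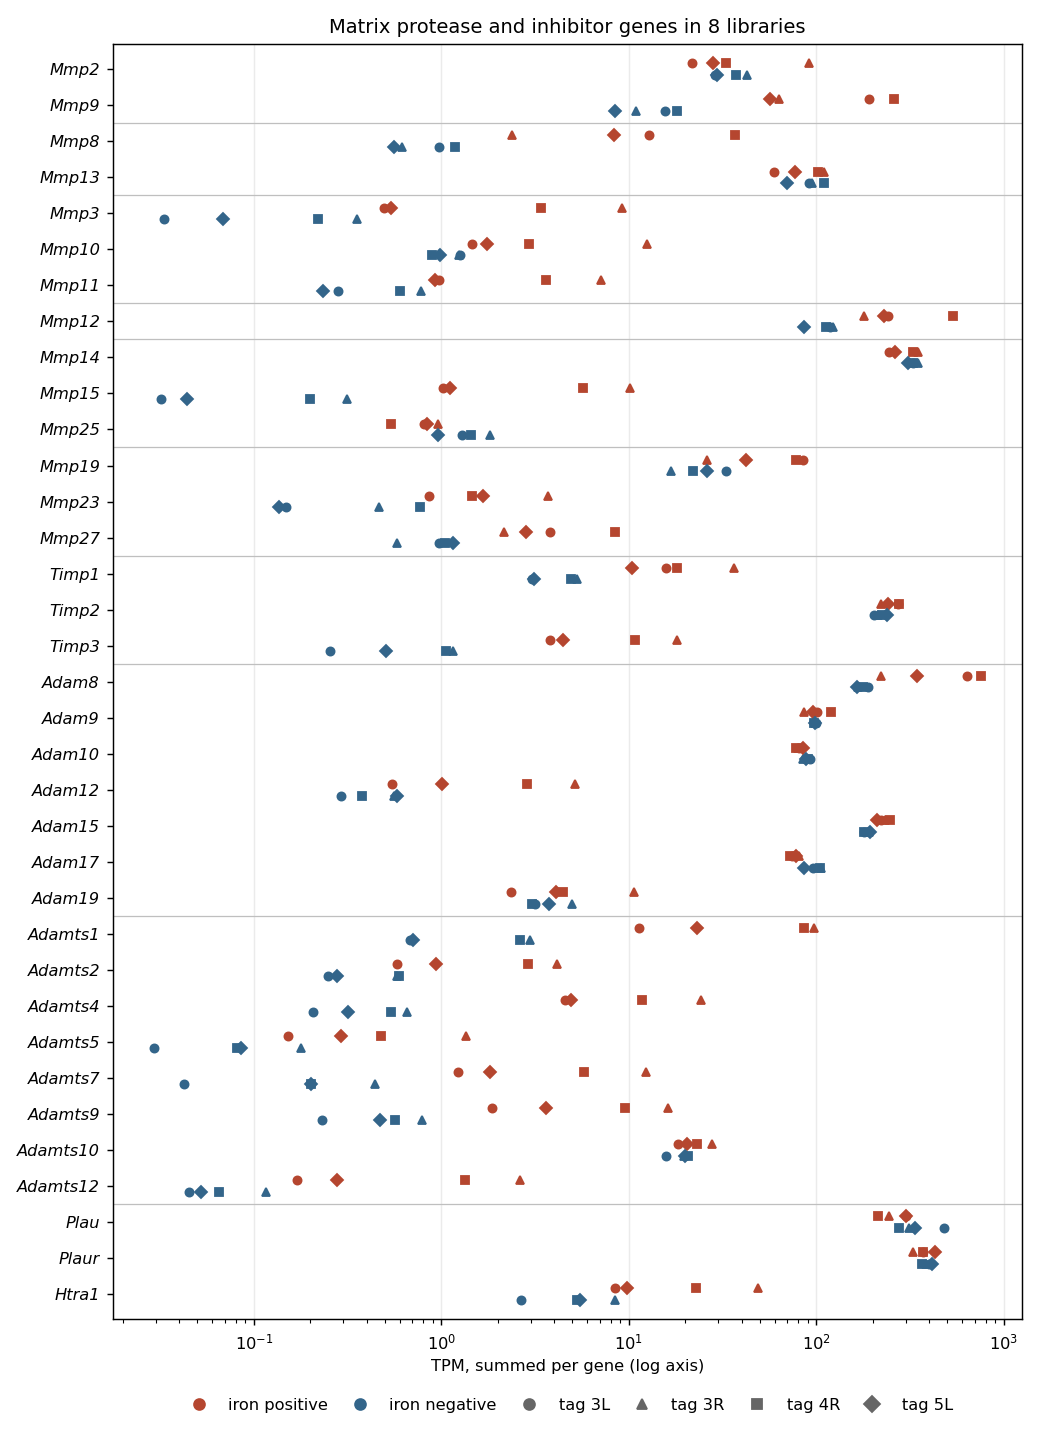
TPM of the 35 tested genes in each library on a log axis, one row per gene in the order of their roles; red points are iron positive and blue points iron negative libraries, and the shape gives the tag. Mmp9 (56.4 to 261 TPM) and Adamts1 (11.4 to 97.0 TPM) in iron positive libraries lie clear of their iron negative values, whereas Mmp14 and Plaur overlap.

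Of the 14 MMP genes, 6 lie next to each other on chromosome 9 (chr9:7272514-7581885 in GENCODE coordinates on GRCm38, the same assembly as mm10) over 309 kb, all on the plus strand. In order along the chromosome they are Mmp13, Mmp12, Mmp3, Mmp10, Mmp8 and Mmp27. Of the 6, 4 were higher in the iron positive fraction (Mmp12, Mmp3, Mmp8 and Mmp27), beside 8.49% of all tested genes. Their promoters are shown as a description of these neighbours, and a link between a motif and the levels was not tested. Each line gives the 100 bases before the start of transcription in RefSeq (GRCm38.p6, plus strand), with matches to the AP-1 motif TGANTCA in capitals. AP-1 is the dimer of Fos and Jun proteins that is known to act on collagenase and stromelysin promoters. Mmp12 has a pair of starts in RefSeq, 1 far upstream and 1 downstream. The latter is called the common start here as a label only, since the use of each start was not measured.
Mmp13 (chr9:7272414-7272513): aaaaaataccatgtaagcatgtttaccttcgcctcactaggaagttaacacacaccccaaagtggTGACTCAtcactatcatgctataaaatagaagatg
Mmp12, upstream start (chr9:7344297-7344396): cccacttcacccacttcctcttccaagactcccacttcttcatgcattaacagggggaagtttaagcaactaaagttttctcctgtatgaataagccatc
Mmp12, common start (chr9:7347274-7347373): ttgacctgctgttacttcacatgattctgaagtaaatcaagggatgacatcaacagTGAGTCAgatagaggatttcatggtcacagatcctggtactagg
Mmp3 (chr9:7445722-7445821): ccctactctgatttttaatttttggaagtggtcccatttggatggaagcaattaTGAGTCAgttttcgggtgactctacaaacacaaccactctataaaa
Mmp10 (chr9:7502242-7502341): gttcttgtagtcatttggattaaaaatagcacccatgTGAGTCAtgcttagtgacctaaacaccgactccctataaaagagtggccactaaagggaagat
Mmp8 (chr9:7558329-7558428): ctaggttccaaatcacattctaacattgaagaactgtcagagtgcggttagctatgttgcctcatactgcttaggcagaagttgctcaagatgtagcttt
Mmp27 (chr9:7571296-7571395): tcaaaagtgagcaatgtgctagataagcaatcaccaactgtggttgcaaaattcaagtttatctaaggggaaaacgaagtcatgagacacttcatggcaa

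In these lines the AP-1 match began 35 bases before the start of Mmp13, 44 before the common start of Mmp12, 46 before that of Mmp3 and 63 before that of Mmp10. These distances hold for the RefSeq starts only. The GENCODE gene start lay 10 bases away for Mmp10 and 27 for Mmp8, and at the same base for Mmp13 and Mmp3. The windows of Mmp8, Mmp27 and the upstream start of Mmp12 held no match to these letters. In the whole windows of 300 bases (250 before and 50 after the start, both strands searched), 8.97% of 27025 genes held the motif. RefSeq windows were at hand for 27 of the 38 genes of the panel, under the 80% needed for a share, so the motif was not compared between the panel and all genes. Outside the chromosome 9 group, Adam19 (131 bases before the start) and Plaur (69 bases before) held a match. Of the chromosome 9 genes with an AP-1 match, Mmp12 and Mmp3 were called higher, Mmp3 with few iron negative counts. Mmp13 and Mmp10 had a match and did not pass, as did Adam19 and Plaur elsewhere. Mmp8 and Mmp27 were called higher without a match. The part of AP-1 in these levels was not tested.

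Mmp13, the main collagenase of interstitial collagen in mice, had 59.7 to 109 TPM in iron positive and 69.7 to 109.9 TPM in iron negative libraries, and its log2 fold change was -0.13 ± 0.18 (adjusted p = 0.656). Mmp12, the macrophage metalloelastase (chr9:7344381-7369499), had 242 (3L), 181 (3R), 534 (4R) and 231 (5L) TPM in iron positive libraries. Its iron negative values were 119 (3L), 124 (3R), 112 (4R) and 86.4 (5L) TPM. All iron positive values lay above all iron negative ones, with 4R highest, and the log2 fold change was 1.28 ± 0.29 (adjusted p = 0.0274). Mmp3, the stromelysin that cleaves proteoglycans and laminin and activates procollagenases, had 0.497 to 9.25 TPM in iron positive and 0.0332 to 0.353 TPM in iron negative libraries (log2 fold change 4.26 ± 1.11, adjusted p = 0.0388). Mmp10, the related stromelysin 2, had 1.45 to 12.5 and 0.892 to 1.26 TPM. Its values did not overlap, but at 1.995 ± 0.67 it missed the threshold (adjusted p = 0.0826), while DESeq2 gave an adjusted p of 0.0134.

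Mmp8, the collagenase first known from neutrophils (chr9:7558456-7568485), had 12.9 (3L), 2.37 (3R), 37.0 (4R) and 8.33 (5L) TPM in iron positive libraries. Iron negative libraries gave 0.971 (3L), 0.614 (3R), 1.18 (4R) and 0.561 (5L) TPM. The fractions did not overlap, and the log2 fold change was 4.11 ± 0.78 (adjusted p = 0.0185). Its neighbour Mmp27 had 2.16 to 8.45 TPM in iron positive and 0.578 to 1.15 TPM in iron negative libraries (2.14 ± 0.45, adjusted p = 0.0219). Both were highest in iron positive 4R and lowest in iron positive 3R, whereas Mmp3 and Mmp10 were highest in 3R. Of the 10 neutrophil markers 5 were tested, and S100a8 and S100a9 were higher in the iron positive fraction. Retnlg, a resistin-like gene of neutrophils, had 4.46 (3L), 1.91 (3R), 8.17 (4R) and 1.23 (5L) TPM in iron positive libraries, against 0.897 (3L), 1.09 (3R), 1.82 (4R) and 0.821 (5L) TPM in iron negative ones. It was higher in 4 of 4 pairs and highest in 4R, with an adjusted p of 0.0995 (0.0388 with the tag block). Csf3r, the receptor for granulocyte colony-stimulating factor, had 31.0 to 34.0 TPM in iron positive and 30.9 to 40.3 TPM in iron negative libraries (adjusted p = 0.207), and Cxcr2 was not called either. The neutrophil list summed to 77.4 to 154.2 TPM in iron positive and 46.2 to 65.1 TPM in iron negative libraries. The neutrophil granule genes Mpo and Elane averaged 0.210 and 0.0201 TPM in iron positive and 0.173 and 0.0185 TPM in iron negative libraries, and like Camp, Ltf and Ngp they had too few counts to be tested. The part of neutrophils in the Mmp8 result was not tested.

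**Figure D2:**
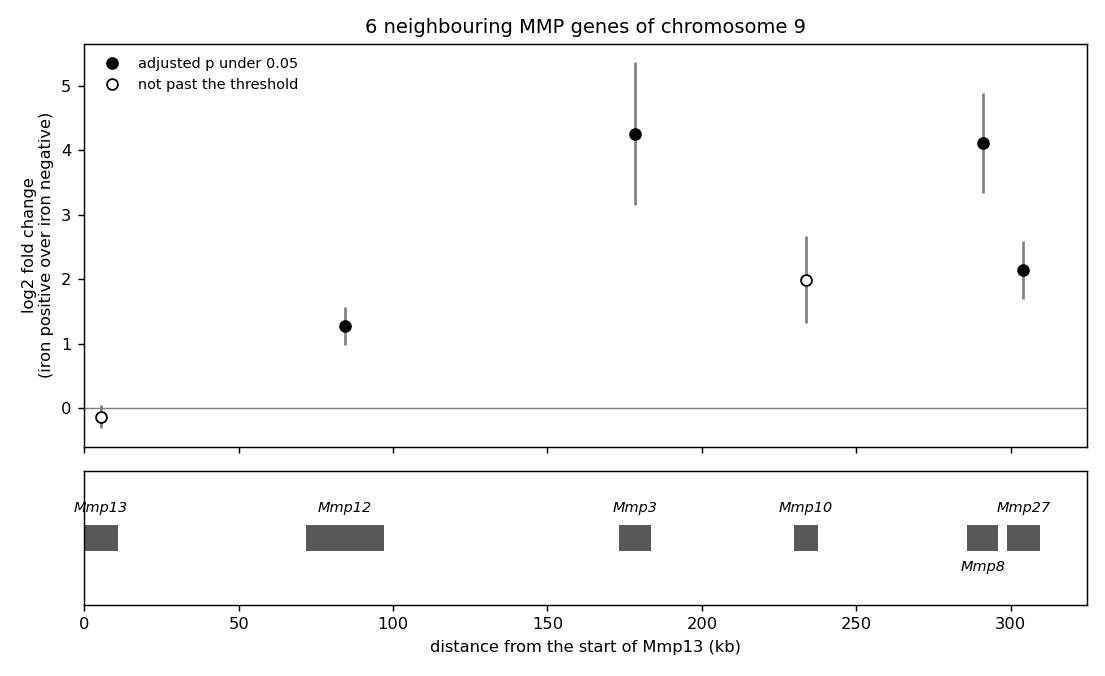
The 6 MMP genes of chromosome 9 by their distance from the start of Mmp13 in kb; the upper panel gives the log2 fold change of iron positive over iron negative with its SE, filled where the adjusted p is under 0.05, and the lower panel the extent of each gene. Mmp3 (4.26) and Mmp8 (4.11) stand highest, and Mmp13, at the left end, lies at -0.13.

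Of the gelatinases, which digest denatured collagen and basement membrane collagen, Mmp9 was higher in the iron positive fraction and Mmp2 did not pass. Mmp9 (chr2:164940780-164955850) had 191 (3L), 63.5 (3R), 261 (4R) and 56.4 (5L) TPM in iron positive libraries. In the flowthrough it had 15.7 (3L), 10.9 (3R), 18.0 (4R) and 8.42 (5L) TPM. The lowest iron positive value was above the highest iron negative one, and within each fraction 4R was highest and 5L lowest. The log2 fold change was 3.36 ± 0.55 (adjusted p = 0.0173). Mmp2 had 21.8 to 91.7 TPM in iron positive and 28.9 to 43.0 TPM in iron negative libraries. Its log2 fold change was 0.28 ± 0.41 (adjusted p = 0.694) and turned to -0.38 without iron positive 3R, which held the value of 91.7 TPM.

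Of the 3 membrane-type MMP genes, Mmp15 was higher in the iron positive fraction, and Mmp14 and Mmp25 did not pass. Mmp14, which cleaves collagen at the cell surface and activates the Mmp2 proenzyme (chr14:54431612-54445364), had 244 (3L), 348 (3R), 330.2 (4R) and 264 (5L) TPM in iron positive libraries. The iron negative values were 329 (3L), 349 (3R), 328 (4R) and 307 (5L) TPM. It was the third most abundant gene of the panel and its fractions overlapped (log2 fold change -0.20 ± 0.10, adjusted p = 0.218, turning to 0.02 when scaled to the macrophage markers). Mmp15, a related membrane-type enzyme, had 1.02 to 10.2 TPM in iron positive and 0.0319 to 0.313 TPM in iron negative libraries, the largest fold change among the tested genes of the panel (4.86 ± 0.97, adjusted p = 0.0199). Mmp25, which is anchored to the membrane of leukocytes by a lipid, had 0.542 to 0.960 and 0.964 to 1.83 TPM. Its log2 fold change of -0.86 ± 0.25 did not pass (adjusted p = 0.0526) but did with the tag block (adjusted p = 0.0374).

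Mmp11, known from tumor fibroblasts and activated inside the cell by furin, had 0.926 to 7.12 TPM in iron positive and 0.235 to 0.775 TPM in iron negative libraries (2.73 ± 0.74, adjusted p = 0.0434). Its exons overlap those of Chchd10 on the other strand, so reads of the pair may be mixed. Mmp23 was higher by 2.21 ± 0.50 (adjusted p = 0.0263) at 0.863 to 3.70 and 0.136 to 0.767 TPM. Mmp19, which cleaves basement membrane proteins, had 26.3 to 85.0 TPM in iron positive and 16.8 to 33.2 TPM in iron negative libraries. These ranges overlapped, yet all 4 same-tag pairs were higher in the iron positive library, and the log2 fold change of 1.23 ± 0.38 passed with the tag block (adjusted p = 0.00851) and not without it (0.0676).

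Of the 3 inhibitors tested, Timp1 and Timp3 were higher in the iron positive fraction, and Timp2, by far the most abundant, did not pass. Timp1, a secreted inhibitor induced by cytokines (chrX:20870166-20874735), had 15.8 (3L), 36.5 (3R), 18.0 (4R) and 10.4 (5L) TPM in iron positive libraries. Its iron negative values were 3.04 (3L), 5.27 (3R), 4.94 (4R) and 3.11 (5L) TPM. The fractions did not overlap, and 3R was highest in both (log2 fold change 2.24 ± 0.39, adjusted p = 0.0176). Timp3, which binds to the matrix and also blocks ADAM and ADAMTS enzymes, had 3.79 to 18.1 and 0.253 to 1.15 TPM (3.89 ± 0.72, adjusted p = 0.0183), and its exons overlap those of Syn3 on the other strand.

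Timp2, which inhibits MMP enzymes and also helps Mmp14 to activate Mmp2 (chr11:118301069-118355740), had 272 (3L), 221 (3R), 278 (4R) and 241 (5L) TPM in iron positive libraries. Iron negative libraries gave 203 (3L), 214 (3R), 226 (4R) and 239 (5L) TPM. It was higher in all 4 pairs by a small amount and did not pass (0.12 ± 0.09, adjusted p = 0.419), except when scaled to the macrophage markers (0.31, adjusted p = 0.0430). Timp4 was at 0.0379 to 0.0850 TPM in iron positive libraries and was listed at 0 in 3 of the 4 iron negative ones. Reck, a membrane-anchored inhibitor, was at 0.0132 to 0.775 TPM in iron positive and 0.0137 to 0.0631 TPM in iron negative libraries. Both levels are too low for the test. The 14 MMP genes together had 2.97 (3L), 3.14 (3R), 4.57 (4R) and 2.80 (5L) times the TPM of the 4 TIMP genes in iron positive libraries, and 3.02, 2.92, 2.73 and 2.19 times in iron negative libraries in the same order of tags. The ratio of Mmp9 to Timp1 was 12.1 (3L), 1.74 (3R), 14.5 (4R) and 5.40 (5L) in iron positive libraries, against 5.16, 2.07, 3.64 and 2.71 in iron negative libraries. It was higher in the iron positive library for 3 tags and lower for 3R, so Mmp9 and Timp1 did not keep a fixed ratio.

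Among the 7 ADAM genes, Adam8 and Adam12 were higher, Adam17 was lower and 4 did not pass. Over all tested genes 8.49% were called higher and 5.21% lower. Adam8, a sheddase of leukocytes (chr7:139978932-139992562), had 640.1 (3L), 221 (3R), 758 (4R) and 343 (5L) TPM in iron positive libraries. In the flowthrough it had 188 (3L), 166 (3R), 177 (4R) and 165 (5L) TPM. The iron negative values lay within a narrow range and below every iron positive one (log2 fold change 1.51 ± 0.36, adjusted p = 0.0311). Adam8 made up 21.4%, 8.29%, 20.3% and 13.3% of the summed TPM of the panel in iron positive 3L, 3R, 4R and 5L, against 7.39% to 8.10% in iron negative libraries. Adam12, known from tumor stroma, had 0.546 to 5.18 and 0.290 to 0.582 TPM, which overlapped (2.69 ± 0.74, adjusted p = 0.0465).

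Adam17 (chr12:21323509-21373632) had 74.7 (3L), 80.5 (3R), 72.7 (4R) and 78.0 (5L) TPM in iron positive libraries. The iron negative values were 96.6 (3L), 106 (3R), 104 (4R) and 86.4 (5L) TPM. Every iron positive value was below every iron negative one, and the decrease was small at -0.37 ± 0.08 (adjusted p = 0.0209). Scaled to the macrophage markers, which moved the median of all genes to 0.20, it was -0.17 and did not pass (adjusted p = 0.314). Its exons overlap those of Iah1 on the other strand. Adam10, a sheddase that cleaves Notch receptors, was at 78.0 to 85.1 and 85.1 to 92.7 TPM (-0.18 ± 0.08, adjusted p = 0.135). Adam9 was at 86.1 to 119.6 and 96.9 to 100.2 TPM (-0.01 ± 0.10, adjusted p = 0.958).

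Adam15, which is also expressed by endothelial cells (chr3:89338542-89349996), had 221 (3L), 234 (3R), 247 (4R) and 209.9 (5L) TPM in iron positive libraries. Its iron negative values were 180.5 (3L), 191 (3R), 179.7 (4R) and 193 (5L) TPM. The TPM ranges did not overlap, while the fold change on counts was 0.14 ± 0.06 and did not pass (adjusted p = 0.168). It passed when scaled to the macrophage markers (0.34, adjusted p = 0.0356) and on log2 TPM values. Adam19 had 2.35 to 10.6 and 3.03 to 4.996 TPM (0.44 ± 0.37, adjusted p = 0.466) and turned to -0.06 without iron positive 3R.

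Of the 8 ADAMTS genes tested, 6 were higher in the iron positive fraction (Adamts1, Adamts2, Adamts4, Adamts7, Adamts9 and Adamts12), beside 8.49% of all tested genes. All 9 ADAMTS genes together summed to 38.2 to 186 TPM in iron positive and 17.3 to 25.5 TPM in iron negative libraries, of which Adamts10, which was not called, made up 18.2 to 27.8 and 15.8 to 20.7 TPM. The median log2 fold change of the 8 was 4.01. Adamts1, which cleaves the proteoglycans versican and aggrecan (chr16:85793827-85803113), had 11.4 (3L), 97.0 (3R), 85.6 (4R) and 23.1 (5L) TPM in iron positive libraries. Iron negative libraries gave 0.678 (3L), 2.95 (3R), 2.63 (4R) and 0.706 (5L) TPM. The tags 3R and 4R were highest in both fractions, and the fractions did not overlap (4.84 ± 0.78, adjusted p = 0.0173). Adamts4, an aggrecanase (chr1:171250421-171260637), had 4.56 (3L), 24.4 (3R), 11.8 (4R) and 4.92 (5L) TPM in iron positive libraries. In the flowthrough it had 0.205 (3L), 0.659 (3R), 0.536 (4R) and 0.319 (5L) TPM. Again 3R and 4R led in both fractions without overlap between them (4.67 ± 0.65, adjusted p = 0.0172).

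Adamts9, a further versican-cleaving enzyme, had 1.86 to 16.2 TPM in iron positive and 0.230 to 0.793 TPM in iron negative libraries (3.999 ± 0.74, adjusted p = 0.0183). Adamts7 and Adamts12, which cleave cartilage oligomeric matrix protein, were higher by 4.27 ± 0.95 and 4.03 ± 0.87 (adjusted p = 0.0256 and 0.0231). Adamts2, which trims the amino end of procollagens, was higher by 2.20 ± 0.59 (adjusted p = 0.0430), with ranges that overlapped by a narrow margin (0.578 to 4.13 and 0.250 to 0.592 TPM). Adamts5, the other main aggrecanase, had 0.152 to 1.35 and 0.0293 to 0.178 TPM. At 2.53 ± 0.72 it missed the threshold (adjusted p = 0.0511) and passed with the tag block (adjusted p = 0.00170). Adamts10, which binds fibrillin had 18.2 to 27.8 TPM in iron positive and 15.8 to 20.7 TPM in iron negative libraries and did not pass (0.15 ± 0.12, adjusted p = 0.443). Adamts15 was at 0.0454 to 0.311 and 0.0125 to 0.0927 TPM, too low for the test.

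The urokinase pair was among the most abundant of the panel in both fractions, and neither gene passed. Plau, the urokinase gene (chr14:20836660-20843385), had 299.7 (3L), 245 (3R), 213 (4R) and 299.9 (5L) TPM in iron positive libraries. The iron negative values were 482 (3L), 311 (3R), 275 (4R) and 336 (5L) TPM. All 4 same-tag pairs were lower in the iron positive library although the ranges overlapped. The log2 fold change of -0.46 ± 0.22 did not pass (adjusted p = 0.194) but did with the tag block (-0.44 ± 0.09, adjusted p = 0.0178). Plaur, the urokinase receptor (chr7:24462484-24475968), had 370.3 (3L), 329 (3R), 371 (4R) and 429 (5L) TPM in iron positive libraries. Its iron negative values were 401 (3L), 386 (3R), 367 (4R) and 415 (5L) TPM. Summed over all its transcripts it had the highest mean of the panel, and it overlapped between fractions (-0.11 ± 0.14, adjusted p = 0.636, turning to 0.08 when scaled to the macrophage markers). The protein coding transcript Plaur-201 held 149.7 to 233 TPM of this in iron positive and 170.7 to 252.3 TPM in iron negative libraries. The rest came from transcripts not classed as protein coding. Htra1, a secreted serine protease, had 8.47 to 48.7 and 2.66 to 8.44 TPM, which did not overlap, and at 1.999 ± 0.57 it missed the threshold by a narrow margin (adjusted p = 0.0509; 0.00499 with the tag block).

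**Figure D3:**
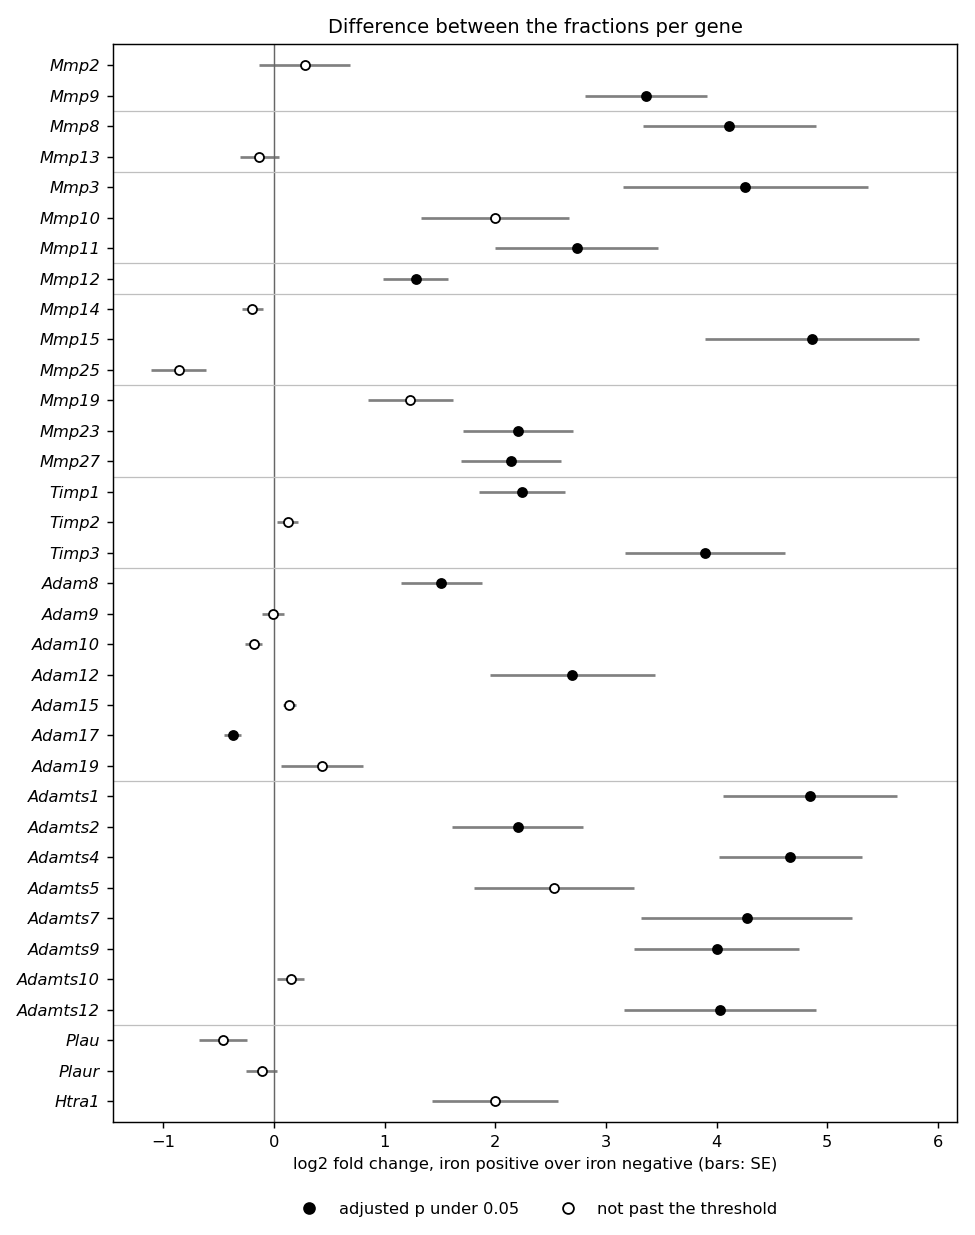
Log2 fold change of iron positive over iron negative with its SE for the 35 tested genes in the order of their roles; filled points have an adjusted p under 0.05 in edgeR. Mmp15 (4.86), Adamts1 (4.84) and Adamts4 (4.67) are farthest right, and Adam17 (-0.37) is the filled point left of 0.

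Differences among the iron positive libraries were described with 3 profiles of marker lists, which were chosen with earlier results known. Each tested gene was described by its log2(TPM + 0.1) values in the 4 iron positive libraries, centred on their mean, and set beside the mean profile of marker lists. A gene was placed with the list whose profile was nearest, if the distance to any other was at least 1.5 times as large. The stromal markers (endothelial, pericyte and fibroblast lists pooled) stood at -1.52 (3L), 1.65 (3R), 0.76 (4R) and -0.89 (5L) on this scale. The macrophage markers were almost flat, at 0.01, -0.17, 0.07 and 0.09 in the same order. A nearly flat profile also takes in genes that vary little for any reason, so closeness to it says no more than that. A list of 12 genes of heme and lipid handling in macrophages, 10 of which were higher in the iron positive fraction, stood at 0.54 (3L), -0.81 (3R), 0.75 (4R) and -0.48 (5L). With the stromal and macrophage profiles alone, 14 of the 35 genes were closer to the stroma profile (6.47% of all tested genes), 17 to the macrophage profile (88.6% of all) and 4 to neither.

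The 14 stroma-like genes were Mmp3, Mmp10, Mmp11, Mmp15, Timp3, Adam12, Adamts1, Adamts2, Adamts4, Adamts5, Adamts7, Adamts9, Adamts12 and Htra1. Each was highest in iron positive 3R, which follows from placement near a profile that peaks there and is no separate result. Of the 14, 11 were higher in the iron positive fraction, beside 8.49% of all tested genes. Their median log2 fold change was 3.95 (range 1.995 to 4.86). Adamts7 lay nearest to the stroma profile, at a distance of 0.0799 log2 units against 1.36 for the macrophage profile. Of the 17 macrophage-like genes 5 were higher and 1 was lower, beside 8.49% and 5.21% of all tested genes, with a median log2 fold change of 0.12. Both descriptions use the same iron positive libraries as the fold change, so they are not independent of it.

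With the heme and lipid profile added, 5 genes were closest to it (1.65% of all tested genes), 14 to the stroma profile (6.47%), 11 to the macrophage profile (82.9%) and 5 to none of the 3. The 5 near the heme and lipid profile were Mmp9, Mmp8, Mmp19, Mmp27 and Adam8. No neutrophil profile was among the 3. Of the tested neutrophil markers, S100a8, S100a9 and Retnlg were also lower in iron positive 3R and 5L than in 3L and 4R. Csf3r and Cxcr2 did not have this shape. Placement near the heme and lipid list therefore cannot tell such macrophages from neutrophils, and the source of these transcripts was not tested. The 5 protease genes were highest in iron positive 4R or, for Mmp19, in 3L, which follows in part from the placement itself. Of the 5, 4 were higher in the iron positive fraction (all but Mmp19), beside 8.49% of all tested genes. Their median log2 fold change was 2.14. This count is not independent of the placement, which used the same iron positive libraries and a list mostly higher in them. Adam8 followed the heme and lipid profile most closely, at a distance of 0.109. The 11 near the flat macrophage profile were Mmp13, Mmp14, Mmp25, Timp2, Adam9, Adam10, Adam15, Adam17, Adamts10, Plau and Plaur. Of these Adam17 was lower and 0 were higher in edgeR, where 0 were higher and 3 lower at an unadjusted p under 0.05, as were 17.1% and 14.0% of all tested genes. DESeq2 called 0 of them higher and 2 lower (Mmp25 and Adam17), beside 12.8% and 8.02% of all genes. Scaling to the macrophage markers gave 2 higher (Timp2 and Adam15) and 0 lower, beside 12.3% and 0.225% of all genes. Their log2 fold changes ran from -0.86 to 0.15. Mmp2, Mmp12, Mmp23, Timp1 and Adam19 fitted none of the 3.

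Over the iron negative libraries the same description gave 9 stroma-like genes, 21 macrophage-like ones and 5 near neither, against 3.2%, 86.8% and 10.02% of all tested genes. Of the 14 genes that were stroma-like over the iron positive libraries 8 kept that place, and of the 17 macrophage-like ones 16 did. Mmp10, Adam12 and Adamts12 were placed with the macrophage profile there, and Adamts5, Adamts9 and Htra1 with neither. The library with the highest iron positive level was 3R for 23 of the 35 genes, 4R for 8, 5L for 3 and 3L for 1, against 39.4%, 27.5%, 21.6% and 11.4% of all tested genes.

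**Figure D4:**
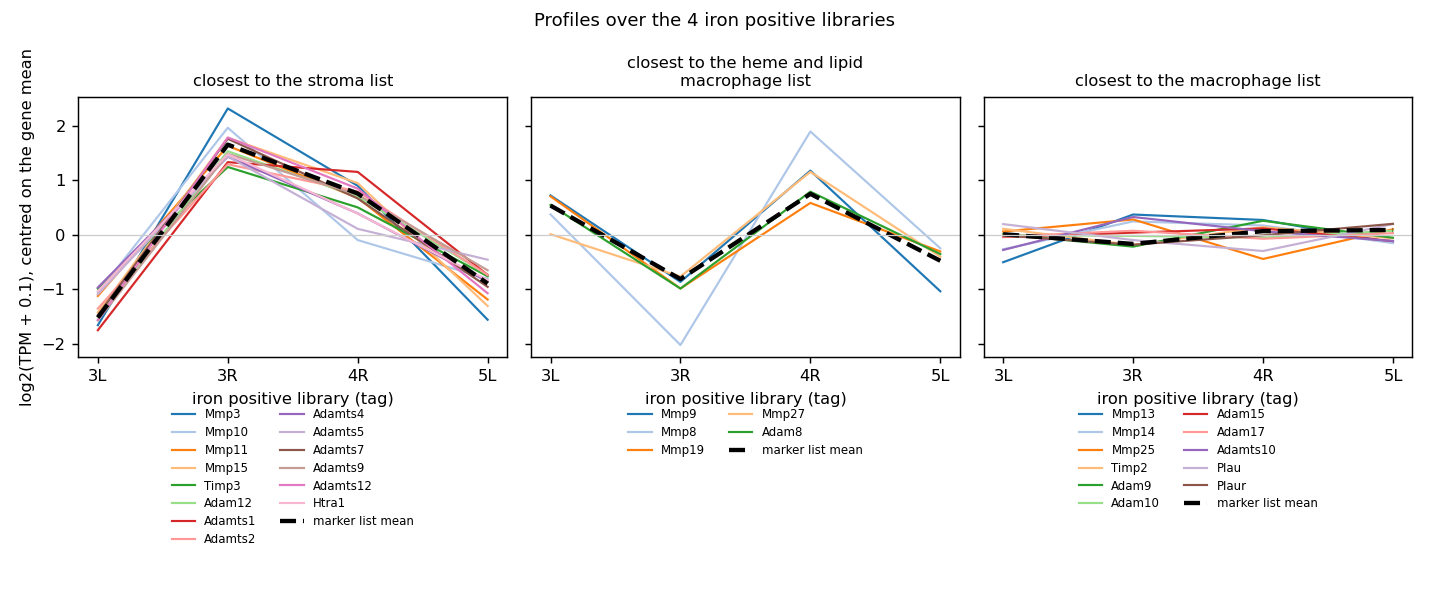
Log2(TPM + 0.1) of each gene in the 4 iron positive libraries, centred on the gene's mean, in panels for genes closest to the stroma, heme and lipid macrophage and macrophage lists; coloured lines are genes and the dashed black line is the mean of the marker list, and lines only join the points of a gene, since tags have no order. The stroma panel peaks in 3R, the heme and lipid panel is lowest in 3R for 4 of its 5 genes, and the macrophage panel stays near 0.

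Genes that act with these proteases were read from 6 lists of 58 genes, of which 32 were tested. The iron positive fraction was higher in 9 of these and lower in 3, beside 8.49% and 5.21% of all genes. With any of the 4 iron negative libraries left out 0 of them passed in edgeR, beside 0% to 0.191% of all genes higher and 0% to 0.088% lower. At an unadjusted p under 0.05 in edgeR, 14 or 15 of them were higher and 3 to 5 lower, beside 15.0% to 15.7% and 10.6% to 11.8% of all genes. DESeq2 then called 12 to 14 of them higher and 3 or 4 lower, beside 10.3% to 11.3% and 5.44% to 5.54% of all genes. Leaving out iron positive 4R left 6 increases and 1 decrease, beside 2.96% and 1.59% of all genes. In plasminogen activation, 4 of 7 tested genes were higher. Plat, the tissue plasminogen activator of endothelium, had 5.15 to 32.2 TPM in iron positive and 0.674 to 1.78 TPM in iron negative libraries (3.65 ± 0.62, adjusted p = 0.0173). Serpine2, which inhibits plasminogen activators and thrombin, was higher by 3.15 ± 0.58 (adjusted p = 0.0183). Anxa2, a plasminogen receptor on cell surfaces, had 259 to 496 and 162 to 197 TPM (0.91 ± 0.16, adjusted p = 0.0176), and its partner S100a10 was also called.

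Of the 10 cathepsins and other matrix proteases, 3 were higher and 2 lower, beside 8.49% and 5.21% of all tested genes. Ctsk, the collagen-cutting cathepsin K, had 15.7 to 91.0 TPM in iron positive and 2.90 to 7.19 TPM in iron negative libraries (3.18 ± 0.52, adjusted p = 0.0173). Prss23, a serine protease, was higher by 4.28 ± 0.76 (adjusted p = 0.0177). Cst3, the secreted cathepsin inhibitor cystatin C, was lower by a small amount, at 1569 to 1801 and 2023 to 2186 TPM (-0.41 ± 0.09, adjusted p = 0.0222), and did not pass when scaled to the macrophage markers (adjusted p = 0.129). Ctsl, cathepsin L, was the remaining gene called higher, and Htra3 the remaining one called lower.

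Of the proprotein convertases and other genes of protease activation and clearance, Pcsk6 was called among 6 tested. It had 0.707 to 3.40 TPM in iron positive and 0 to 0.927 TPM in iron negative libraries (4.92 ± 1.06, adjusted p = 0.0231). Of 4 tested further ADAMTS and ADAMTS-like genes, Adamtsl5 was called (2.46 ± 0.34, adjusted p = 0.0172), and of 4 further ADAM genes, Adamdec1 was lower (-1.35 ± 0.36, adjusted p = 0.0427), though not when scaled to the macrophage markers (adjusted p = 0.0960). Of 9 further MMP genes 1 was tested, Mmp17, and it passed neither in edgeR, at an unadjusted p of 0.0569, nor in DESeq2. The highest of the 9 by mean were Mmp28, at 0.135 to 3.08 TPM in iron positive and 0 to 0.0884 TPM in iron negative libraries, and Mmp16, at 0.0371 to 0.890 and 0.0659 to 0.393 TPM.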

How the data were processed

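RNA of 8 libraries was quantified per transcript with kallisto 0.46.2 on mm10, per the submitters' processing notes; the transcript set and the strand setting are not given in the sources used here. The deposited tables hold estimated counts, which are not normalized, and TPM, which is scaled by effective length and library total. Here both were summed per gene over the 116728 of 119414 transcripts that matched GENCODE M21 (2686 did not, 0.888% to 0.961% of a library's counts, and were left out). Where exons of 2 genes overlap on opposite strands, their reads may be mixed. Library totals of 19.04 to 24.31 M set the counting precision.

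Estimated counts were rounded and tested with edgeR 4.0.16 (R 4.3.3): TMM scaling, filterByExpr, the quasi-likelihood F-test on the fraction and Benjamini-Hochberg adjustment over 13343 genes. SE is the absolute log2 fold change divided by the square root of F, an approximation. DESeq2 1.42.0, limma 3.58.1, other scalings and filters, a tag block and leaving out each library were alternatives. The fit was tested on simulated data. Genes are given with values in every library if they passed with at least 10 TPM in a fraction, or are among the 6 highest; of each list of partner genes, up to 3 that passed with the smallest adjusted p are named, or else the 2 highest. S100a10, Ctsl, Htra3 and Mmp17 were named outside this rule, after their values were seen. The genes and lists were chosen with earlier results of these data known.

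The tags were checked as pairs by correlating, across genes, deviations from the fraction means: the coefficient between libraries of a tag was 0.53 for 3L, 0.52 for 3R, 0.27 for 4R, and 0.30 for 5L, all above 0.1 and above any other tag (at most 0.26). The pairing comes from the tags in the labels. Libraries of a fraction differed beyond counting noise (chi-square per gene 43.9 to 112 in iron positive and 9.38 to 26.9 in iron negative pairs).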

Additional observations from a re-analysis of the deposited data

Results flagged for a closer look

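In 2 of the 70 groups of 4 libraries examined (35 genes in 2 fractions), the highest library stood so far from the next that the gap exceeded Dixon's 95% critical value as a share of the group's range, where chance gives about 1 in 20. Mmp2 had 91.7 TPM in iron positive 3R, against 33.0, 28.1 and 21.8 TPM in iron positive 4R, 5L and 3L (0.840 of the range). Mmp10 had 12.5 TPM in iron positive 3R, against 2.92, 1.74 and 1.45 TPM in iron positive 4R, 5L and 3L (0.867 of the range). The same library held the highest summed level of fibroblast and fibrosarcoma markers, at 2007 TPM, and the part of these cells in both values was not tested.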

How the results depend on the processing

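Of 803 recomputed fold changes of single genes, 625 kept direction and side of the threshold, 125 lost the call, 38 gained it and 15 reversed, none of them in a gene called with all libraries. Scaled to the macrophage markers, Mmp13 turned to 0.0933, Mmp14 to 0.0220, Adam9 to 0.179, Adam10 to 0.0146 and Plaur to 0.0758. Adam9 also took 0.0434 (library totals), 0.00258 (at least 1 CPM), 0.0238 and 0.0237 (log2 TPM with 0.1 and 1 added) and 0.0284 (DESeq2 without iron negative 3L). With a library left out, Adam9 ran from -0.0798 to 0.0714, Mmp2 from -0.378 to 0.471 and Adam19 from -0.0632 to 0.648. With the tag as a replicate block, 21 genes of the panel were higher and 3 lower, and over all genes 1705 and 1253; of the panel it changed no other call than the 5 named in the report. Counts of the panel, higher and lower, were 22 and 2 (DESeq2), 1 and 1 (limma voom), 23 and 0 (macrophage markers), and 10 higher on log2(TPM + 1). With a library left out they ran from 0 to 20 and from 0 to 1, and partner genes from 0 to 11 and from 0 to 3. DESeq2 fits without an iron negative library were added after the data were seen; partner genes higher were 14 without 3R or 4R, and 2 of the panel were lower without 5L. Partner genes were 5 lower in DESeq2, 2 higher and 1 lower in limma voom, 0 lower with macrophage scaling and 14 higher without the filter. Over all genes, DESeq2 gave 1703 and 1070, limma voom 189 and 273, library totals 362 lower, macrophage scaling 30 lower, log2(TPM + 0.1) 706 and 270, log2(TPM + 1) 413 and 205, length offsets 407 lower, and leaving out a library 0 to 1487 and 0 to 979. The macrophage-like count fell to 11 when a profile was added that takes genes from it, and 9 genes were stroma-like over the iron negative libraries. The cause of the other shifts was not tested. At this depth Reck, Timp4 and Adamts15 had too few counts to be tested.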

Other observations

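The deposited values per transcript, looked at after the gene values were seen, are given here for Adam15 and Mmp12. Adam15-202 had 7.35 (3L), 36.7 (3R), 27.4 (4R) and 11.7 (5L) TPM in iron positive libraries. In iron negative libraries it had 1.81 (3L), 3.81 (3R), 4.35 (4R) and 4.87 (5L) TPM. The main isoform Adam15-201 had 115 (3L), 83.6 (3R), 107 (4R) and 114 (5L) TPM in iron positive libraries, and 113 (3L), 111 (3R), 106.6 (4R) and 117 (5L) TPM in iron negative ones. The processed transcript Adam15-209 had 43.6 (3L), 50.3 (3R), 47.3 (4R) and 46.2 (5L) TPM in iron positive libraries, and 29.1 (3L), 33.3 (3R), 30.5 (4R) and 30.9 (5L) TPM in iron negative ones. The fractions did not overlap for Adam15-202, Adam15-209 and the gene as a whole, and they overlapped for Adam15-201. Among the iron positive libraries Adam15-202 was highest in 3R and 4R, which also held the highest sums of endothelial and fibroblast markers. Of the Mmp12 transcripts, Mmp12-203 had 68.7 (3L), 61.5 (3R), 191 (4R) and 72.9 (5L) TPM in iron positive libraries. In iron negative libraries it had 42.7, 38.7, 35.0 and 28.5 TPM in the same order. Mmp12-202 had 88.9 (3L), 62.7 (3R), 189 (4R) and 86.8 (5L) TPM in iron positive libraries, and 39.5, 41.2, 38.6 and 28.6 TPM in iron negative ones. Both were highest in iron positive 4R. Estimates for isoforms of 1 gene share reads, so these are descriptions with no test.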
